A study of Arabidopsis arenosa x Arabidopsis thaliana and Arabidopsis thaliana and Arabidopsis arenosa with 5 samples.

Results

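The F1 allotetraploid of Arabidopsis was compared with its parental species gene by gene, by setting the total of its 2 alleles against the mid-parent value, the mean of the A. arenosa and A. thaliana parents. The F1 total was the RPKM (read density over a transcript, normalised for its length and for library size) of the A. thaliana allele plus that of the A. arenosa allele in each of 3 replicate columns. Each parent also had 3 replicate columns, so the comparison used 3 of the 5 samples of the series. Genes entered the comparison when either parent averaged at least 5 RPKM, a limit passed by 9989 of the 11017 genes in the F1 table. The 1028 others were under this limit, and the genes nearest to it on either side were both at 5.00 RPKM. Every transcript of the F1 table has a value above 0 for both alleles in all columns, so silenced alleles cannot be seen here, and 2466 of the 12458 parental genes at 5 RPKM or more are not in that table. The groups were resynthesized F1 allotetraploids of A. arenosa and A. thaliana, 6 to 7 weeks old, autotetraploid A. arenosa (ecotype Care-1) of 6 to 7 weeks, and autotetraploid A. thaliana (ecotype Landsberg erecta) of 3 to 4 weeks. All 3 were rosette leaves taken before bolting from tetraploid plants grown with 16 h of light at 22 °C and 8 h of dark at 20 °C. Age and species therefore cannot be told apart in any comparison with A. thaliana. Whether the 3 columns of a group came from different plants is not stated in the labels, so p-values measure the spread between these columns, which may be technical. The labels give no number of F1 plants or lines.

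An allopolyploid carries the complete genomes of different species in a shared nucleus. Where both alleles keep the output they had in their own species, the total lies midway between the parents and the gene is called additive. A total at the level of a single parent is called expression-level dominance, and a total above or below both parents is called transgressive. Since bulk leaves were sequenced, a change in the share of a cell type and a change of RNA per cell cannot be told apart.

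Genes were placed by where the 3 F1 values lay against the range of the 3 values of each parent, a range being the lowest to the highest replicate column. A gene was transgressive when every F1 value lay outside every parental value. Where the parental ranges were apart, a gene was intermediate with every F1 value in the gap between them. This class is wider than additive, since the values could lie anywhere in the gap. A gene was A. arenosa-like or A. thaliana-like when the F1 range overlapped that of the named parent only. The parental ranges were apart for 3345 genes, of which 2619 were higher in A. arenosa and 726 higher in A. thaliana. Transgressive high genes numbered 629 (6.3% of the genes compared) and transgressive low genes 45 (0.45%). Intermediate genes numbered 366 (3.66%), A. arenosa-like genes 1223 (12.2%) and A. thaliana-like genes 923 (9.24%). Of the rest, 694 had an F1 range overlapping both separate parents, and in 6109 the parental ranges overlapped and the F1 did not lie outside them. The class of a gene is a description of 9 values and carries no test of its own. Fewer columns give narrower ranges, so the transgressive and intermediate classes were larger whenever a column was left out. Transgressive high genes then numbered 670 to 1202, most without A. arenosa column 3 or F1 column 1, and transgressive low genes 49 to 150, most without F1 column 3 or 1 or A. thaliana column 1. Leaving out A. thaliana column 3 gave 737 intermediate and 2939 A. arenosa-like genes, and leaving out A. arenosa column 3 gave 1569 A. thaliana-like genes.

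**Figure D1:**
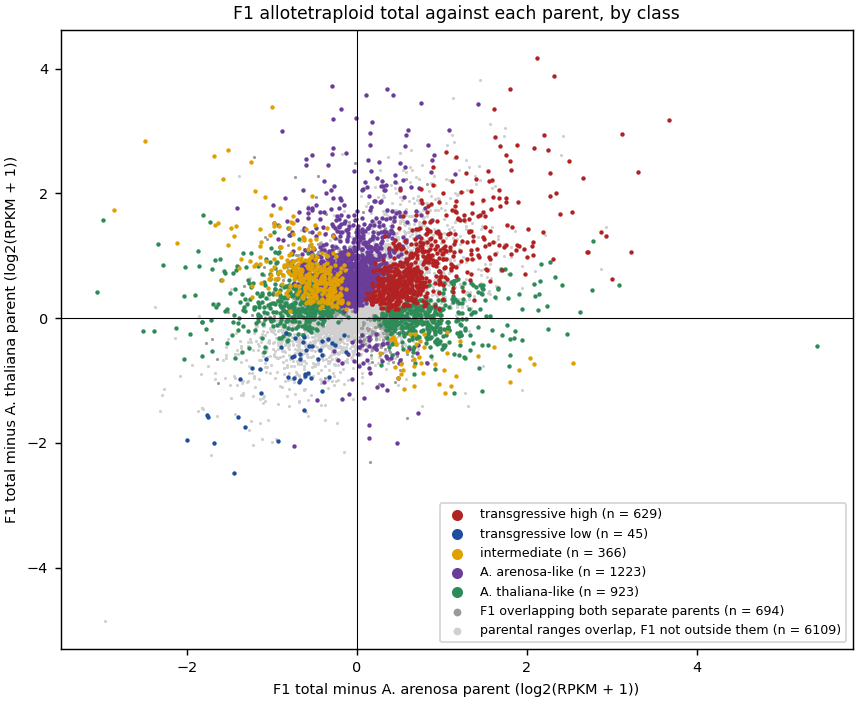
F1 total minus the A. arenosa parent (x axis) against F1 total minus the A. thaliana parent (y axis), both as differences of mean log2(RPKM + 1), with 1 point for each of 9989 genes, coloured by class. Transgressive high genes (629, red) lie right of and above 0 on both axes, transgressive low genes (45, blue) left of and below it, and A. arenosa-like and A. thaliana-like genes along the axes.

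Most genes lay near the mid-parent value. The F1 total was within 1.5-fold of it for 82.9% of genes and within 2-fold for 94.8%. These shares do not count additive genes, since the parental ranges were apart for only 3345 genes (33.5%). The median difference over all genes, F1 minus mid-parent value, was 0.15 on the log2(RPKM + 1) scale, with 6838 genes above 0 and 3151 below, and the median standard error of a gene was 0.24. By size alone, 398 genes (3.98%) were at least 2-fold above the mid-parent value and 125 (1.25%) at least 2-fold below it. The first number was 235 without A. arenosa column 1, and the second 222 without F1 column 3 and 200 without A. thaliana column 1. In limma, with the Benjamini-Hochberg adjustment over all 9989 genes, adjusted p below 0.05 and at least 2-fold, 9 genes (0.0901%) were above the mid-parent value and 0 (0%) below it. At an unadjusted p under 0.05, 1402 genes lay above it and 243 below.

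The split of the classes depended on how the libraries were scaled. The median log2 level of the genes compared was 4.15, 4.11 and 4.19 in F1 columns 1, 2 and 3, against 3.95, 4.06 and 4.17 in A. arenosa and 3.69, 3.76 and 3.90 in A. thaliana. With each library centred on its median, the median difference of all genes from the mid-parent value was -0.07, and 217 genes were transgressive high and 267 transgressive low. With each library rescaled to the same sum it was 0.26, with 542 high and 23 low, and with the same upper quartile -0.0031, with 310 high and 174 low. The share of transgressive genes that were high was thus 93.3% as deposited, and 44.8%, 95.9% and 64.0% after these 3 rescalings. A total of 140 genes were transgressive high under all 4 scalings, and 5 were transgressive low. These 5 were LBD21, UGT74C1, AT1G01390, SQP1 and CDF1, and they were chosen for naming after their values were seen.

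**Figure D2:**
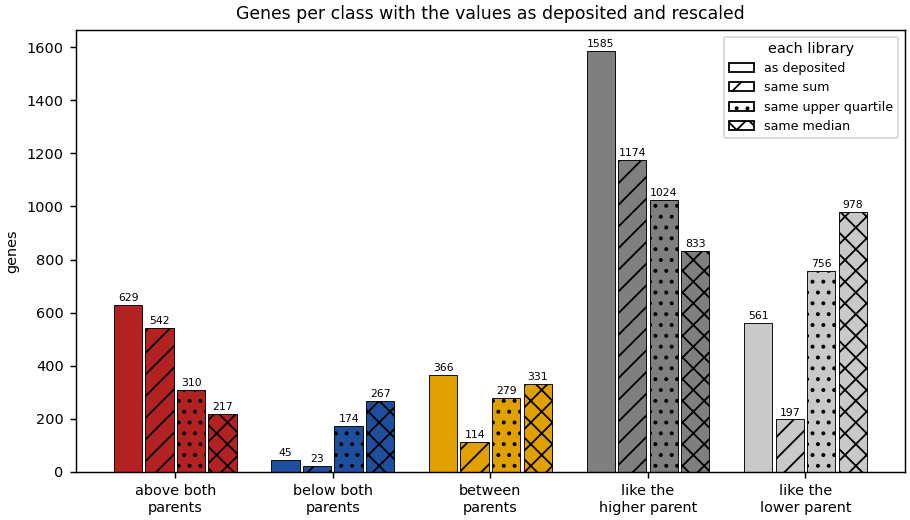
Number of genes in each class (y axis, bars from 0) with values as deposited and after each library was rescaled to the same sum, upper quartile or median. Genes above both parents number 629 as deposited and 217 with equal medians, and genes below both number 45 and 267. Parent-like genes were split by whether the F1 lay with the higher or the lower parent.

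The genes that rose in the F1 past the test were AT1G19380, WRR4, PUP18, CMPG1, AT4G36010, AT2G30990, CAD1, AT3G59310 and NET4B, and all 9 were transgressive high. AT1G19380 (TAIR10.1 chromosome 1, 6697874 to 6698858), annotated as a protein with a DUF1195 domain, had 103, 178 and 175 RPKM in the F1, against 6.97, 19.4 and 8.76 RPKM in A. arenosa and 23.4, 11.7 and 13.4 RPKM in A. thaliana. Each F1 value was well above the highest parental value, and the total was 10.6-fold the mid-parent value, a difference of 3.40 (SE 0.35, limma adjusted p = 0.0272). PUP18 (chromosome 1, 21441179 to 21443036), of the purine permease family of transporters, had 145, 138 and 197 RPKM in the F1, against 24.0, 45.7 and 44.3 RPKM in A. arenosa and 20.2, 21.0 and 28.8 RPKM in A. thaliana. Its F1 values lay above every value of both parents, whose own ranges overlapped, with a difference of 2.37 (SE 0.27, adjusted p = 0.0272).

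Among the other called genes, WRR4 (chromosome 1, 21167565 to 21173632), an intracellular immune receptor of the TIR-NBS-LRR class known from resistance to white rust, had 127, 44.2 and 66.3 RPKM in the F1, against 5.12, 5.91 and 8.43 RPKM in A. arenosa and 18.1, 12.1 and 10.9 RPKM in A. thaliana. The lowest F1 value was above the highest parental value, and the difference was 2.74 (SE 0.32, adjusted p = 0.0272). CMPG1 (chromosome 1, 24637196 to 24638608), a U-box protein of the ubiquitin ligases, had 19.9, 29.8 and 39.9 RPKM in the F1, against 2.86, 5.96 and 6.55 RPKM in A. arenosa and 7.74, 6.51 and 5.28 RPKM in A. thaliana. It lay above both parents in every F1 column, by 2.16 from the mid-parent value (SE 0.27, adjusted p = 0.0335). CAD1, a membrane attack complex and perforin domain protein whose loss gives spontaneous cell death, had 47.9, 34.5 and 34.1 RPKM in the F1, against 10.3, 19.1 and 15.3 RPKM in A. arenosa and 10.2, 12.4 and 11 RPKM in A. thaliana. AT4G36010, annotated as a pathogenesis-related thaumatin protein, had 14.3, 28.3 and 21.0 RPKM in the F1, against 6.78, 7.93 and 6.81 RPKM in A. arenosa and 5.44, 2.82 and 2.84 RPKM in A. thaliana. Both lay outside the parental ranges in all F1 columns, with differences of 1.51 and 1.76 (SE 0.21 and 0.25, adjusted p = 0.0475 for each).

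The remaining 3 were lower in level. AT2G30990, a DUF688 protein, averaged 15.5 ± 3.27 RPKM in the F1, 5.32 ± 2.0 in A. arenosa and 4.26 ± 0.185 in A. thaliana (SD, n = 3 each). AT3G59310, annotated as a solute carrier of family 35, averaged 13.7 ± 2.24 RPKM in the F1, 3.61 ± 0.687 in A. arenosa and 5.51 ± 0.782 in A. thaliana. NET4B, of a family of actin-binding proteins, averaged 12.7 ± 1.92 RPKM in the F1, 5.38 ± 0.393 in A. arenosa and 5.19 ± 0.899 in A. thaliana. Their differences from the mid-parent value were 1.52, 1.39 and 1.12, at limma adjusted p = 0.0475, 0.0272 and 0.0475. AT1G19380 and PUP18 passed the test under all 3 rescalings, and these were the only members of the 9 to do so. With the replicate number as a block, AT1G19380, WRR4, PUP18, CMPG1 and AT3G59310 passed and the other 4 did not. No gene passed when F1 column 2, F1 column 3, A. thaliana column 2 or A. arenosa column 3 was left out. With A. arenosa column 2 left out 1 gene passed, without A. arenosa column 1 the number was 5, and without A. thaliana column 3 it was 20.

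By distance from the nearest parental value, the leading transgressive high genes also held AT5G14920 and AT3G10300, which did not pass the test. AT5G14920, annotated as a gibberellin-regulated family protein, had 181, 259 and 191 RPKM in the F1, against 4.45, 32.4 and 74.7 RPKM in A. arenosa and 31.1, 24.6 and 22.9 RPKM in A. thaliana. The A. arenosa columns spread widely, which gave the difference of 3.03 an SE of 0.66 (adjusted p = 0.104). AT3G10300, a calcium-binding EF-hand protein, had 52.4, 50.7 and 64.0 RPKM in the F1, against 6.09, 24.7 and 21.2 RPKM in A. arenosa and 21.1, 23.5 and 14.7 RPKM in A. thaliana, with a difference of 1.64 (SE 0.38, adjusted p = 0.107). Every F1 value of both genes lay above every parental value.

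**Figure D3:**
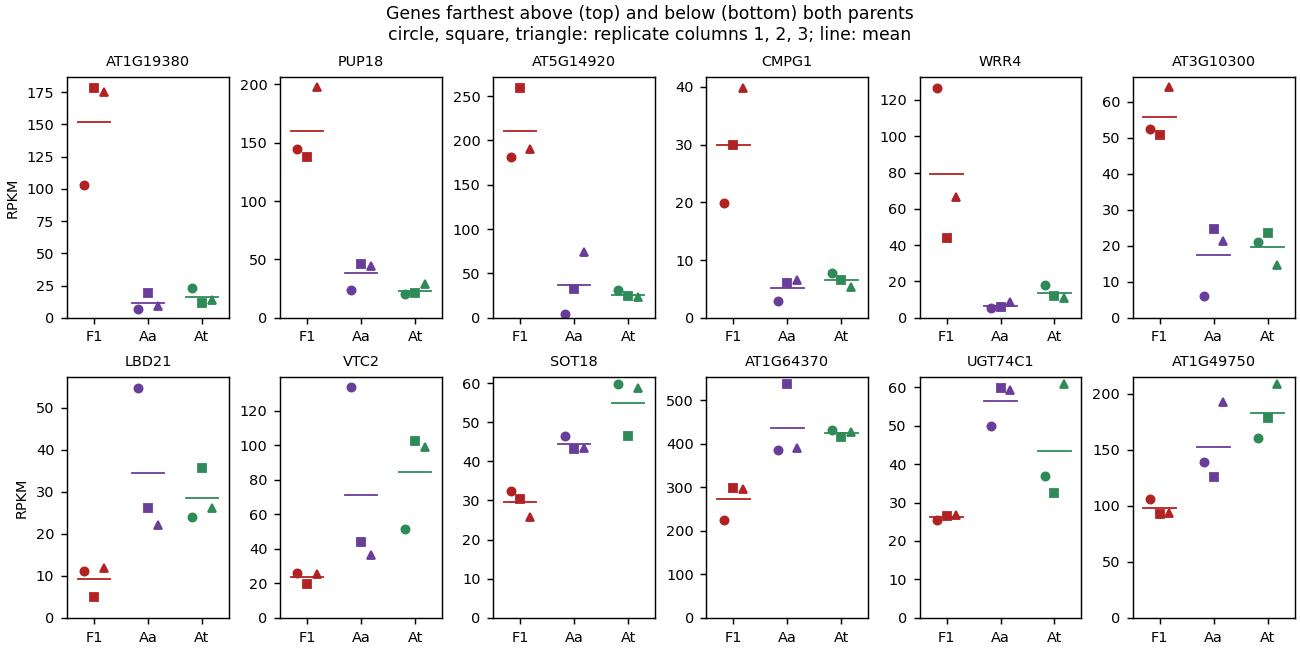
RPKM (y axes, linear, from 0) of the 6 genes farthest above and the 6 farthest below both parents, in the F1, A. arenosa (Aa) and A. thaliana (At). Points are the 3 replicate columns and lines their means. No F1 point of these 12 genes lies within the range of a parent.

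The sequence upstream of several of these genes is shown because it holds a short element that was more frequent among transgressive high genes. Windows of 250 bases before to 50 bases after the annotated gene start were read from the A. thaliana Col-0 genome (RefSeq, TAIR10.1) for 9946 of the 9989 genes, and neither the Landsberg erecta nor the A. arenosa sequence was examined. Capitals mark CGCGTT, or its reverse complement, and the W-box letters TTGACC or TTGACT on either strand. CGCGTT is the core known from rapid stress response promoters and bound by CAMTA factors, the W-box is the element bound by WRKY factors, and the windows run 5′ to 3′ along the gene.

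WRR4 promoter (chr1:21167315-21167614, plus strand): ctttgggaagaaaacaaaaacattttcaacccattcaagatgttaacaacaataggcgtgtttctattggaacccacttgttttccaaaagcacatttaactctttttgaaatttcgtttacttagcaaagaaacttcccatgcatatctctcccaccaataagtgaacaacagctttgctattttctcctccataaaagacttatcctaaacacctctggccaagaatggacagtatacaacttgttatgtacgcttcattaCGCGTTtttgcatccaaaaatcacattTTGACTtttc

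PUP18 promoter (chr1:21442987-21443286, minus strand): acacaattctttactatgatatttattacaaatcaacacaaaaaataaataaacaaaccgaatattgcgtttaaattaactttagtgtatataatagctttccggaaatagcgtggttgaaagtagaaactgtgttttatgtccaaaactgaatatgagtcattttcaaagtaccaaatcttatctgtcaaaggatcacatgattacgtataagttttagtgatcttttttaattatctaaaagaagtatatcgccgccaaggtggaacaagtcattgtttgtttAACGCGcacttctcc

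CMPG1 promoter (chr1:24636946-24637245, plus strand): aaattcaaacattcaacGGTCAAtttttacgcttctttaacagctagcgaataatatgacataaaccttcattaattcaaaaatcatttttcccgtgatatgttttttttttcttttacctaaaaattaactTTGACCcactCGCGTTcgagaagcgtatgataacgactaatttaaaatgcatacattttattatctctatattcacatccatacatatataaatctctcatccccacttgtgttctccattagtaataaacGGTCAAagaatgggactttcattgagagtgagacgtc

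CGCGTT was in 57 of 625 windows of transgressive high genes (9.12%) and in 3.94% of the 9946 windows of all genes compared. It was in 27 of 140 windows (19.3%) of the genes that were transgressive high under all 4 scalings, in 2 of 45 (4.44%) of transgressive low genes and in 1.93% of intermediate genes. This motif was chosen after the values of the genes were seen, so its share is a description without a test. W-box letters were in 38.6% of transgressive high windows and 45.7% of the 140, against 32.5% of all windows. The G-box CACGTG was in 9.44% of transgressive high windows, 12.1% of the 140 and 9.47% of all. For the CCA1 binding site AAAAATCT these shares were 8.48%, 12.1% and 8.39%. For the evening element AAAATATCT they were 4.16%, 3.57% and 3.43%. Each motif was counted on both strands. None of these motifs contains another. A match is not evidence of a bound site. AT1G19380, the gene farthest above both parents, held none of these motifs in its window, nor did AT4G36010, AT5G14920 or AT3G10300. The window of CAD1 held W-box letters but not CGCGTT.

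Each F1 allele was also set against its own parent, with its RPKM doubled on the assumption that allele and parental RPKM share a scale, which the labels do not state. A total above both parents depends on these same values, so the split is a description of the chosen genes. Of the 629 genes, the doubled A. thaliana allele and the doubled A. arenosa allele each exceeded their own parent in all columns for 268, against 361 of all 9989 genes. For 281 genes this held for the A. thaliana allele only, for 72 for the A. arenosa allele only, and for 8 for neither. Of the 45 transgressive low genes, both doubled alleles lay below their own parent for 27 (66 of all genes), the A. thaliana allele only for 14, the A. arenosa allele only for 2 and neither for 2. The A. arenosa allele made up a median of 45.8% of the F1 total in transgressive high genes and 56.5% in transgressive low genes, against 51.4% over all genes compared. Transgressive high genes had a median mid-parent value of 9.88 RPKM and transgressive low genes 34.7 RPKM, against 14.4 RPKM over all genes. The transgressive high genes were spread over the genome, making up 5.90% to 6.56% of the genes compared on each of the 5 chromosomes. When the test was run against each parent, 17 genes were above both parents at adjusted p below 0.05 and 0 below both.

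Transgressive low genes included regulators, an enzyme of ascorbate synthesis and enzymes of glucosinolate synthesis, none of which passed the test. LBD21, a transcription factor of the LOB domain family, had 11.1, 4.98 and 11.8 RPKM in the F1, against 54.8, 26.1 and 22.2 RPKM in A. arenosa and 24.1, 35.6 and 26.1 RPKM in A. thaliana. Its highest F1 value was below its lowest parental value (a gap of -0.86 on the log2 scale), and the difference from the mid-parent value was -1.67 (SE 0.34, limma adjusted p = 0.0934). VTC2, the GDP-L-galactose phosphorylase of the ascorbate pathway, had 25.9, 19.8 and 25.2 RPKM in the F1, against 134, 43.8 and 36.5 RPKM in A. arenosa and 51.5, 103 and 99.1 RPKM in A. thaliana, a difference of -1.54 (SE 0.41, adjusted p = 0.135). The F1 columns of VTC2 lay close together and below all 6 parental columns, which themselves spread widely.

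AT1G64370, annotated as filaggrin-like, had 225, 299 and 295 RPKM in the F1, against 385, 538 and 389 RPKM in A. arenosa and 432, 417 and 426 RPKM in A. thaliana. AT1G49750, a leucine-rich repeat family gene, had 106, 92.4 and 94.0 RPKM in the F1, against 139, 125 and 192 RPKM in A. arenosa and 160.3, 178 and 209 RPKM in A. thaliana. For both, the F1 range lay just under the parental ranges, with differences of -0.66 and -0.76 from the mid-parent value (SE 0.29 and 0.25). The largest negative difference of any gene compared was that of AT5G54610 (ANK, an ankyrin-repeat gene), singled out after its value was seen. Its mean level on the log2(RPKM + 1) scale was 1.49 in the F1, 4.45 in A. arenosa and 6.34 in A. thaliana, a difference of -4.19 (SE 0.82, adjusted p = 0.0934), but at least 1 F1 value lay within the parental range.

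Against the parents separately, the F1 was above A. thaliana in 399 genes (3.99%) and below it in 20 (0.2%) by limma at adjusted p below 0.05 and at least 2-fold. It was above A. arenosa in 90 genes (0.901%) and below it in 22 (0.22%). Both comparisons share the F1 columns. Those counts depended on single columns. Genes above A. thaliana numbered 0 without F1 column 2, F1 column 3 or A. thaliana column 2, 171, 172 and 188 without A. thaliana column 1, A. arenosa column 2 or F1 column 1, and 1132 without A. thaliana column 3. Genes above A. arenosa numbered 17 to 37 without any 1 column of the F1 or of A. arenosa or without A. thaliana column 2, and 206 without A. thaliana column 3. With library medians equal, 35 genes were above A. thaliana.

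Intermediate genes had their F1 total in the gap between clearly separate parents. Of the 366, 324 were higher in A. arenosa and 42 higher in A. thaliana. Their median difference from the mid-parent value was -0.06, with 3 genes at least 2-fold below it and 0 at least 2-fold above. Single genes could lie away from the middle of the gap. Among those named next, AT3G04230, AT3G47540 and AT1G73325 lay well under the mid-parent value. AT3G04230, annotated as a ribosomal protein S5 domain 2-like protein, had 44.6, 47.9 and 49.6 RPKM in the F1, against 118, 136 and 161 RPKM in A. arenosa and 8.85, 4.38 and 6.72 RPKM in A. thaliana. The A. arenosa allele made up 99.8% of its F1 total, which was steady across the columns. AT3G47540, of the chitinase family, had 109.7, 36.9 and 164 RPKM in the F1, against 344, 213 and 310.3 RPKM in A. arenosa and 15.8, 14.9 and 10.5 RPKM in A. thaliana, with 90.4% from the A. arenosa allele. AT1G27030, of unknown function, had 23.5, 56.8 and 82.0 RPKM in the F1, against 87.8, 88.9 and 116 RPKM in A. arenosa and 2.13, 2.53 and 8.33 RPKM in A. thaliana, and AT1G73325, a Kunitz family protease inhibitor gene, averaged 32.6 ± 22.2 RPKM in the F1, 160.0 ± 51.6 in A. arenosa and 3.96 ± 4.42 in A. thaliana (SD, n = 3 each).

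In the other direction, UBQ3, a polyubiquitin gene, had 73.1, 82.0 and 105 RPKM in the F1, against 14.6, 11.1 and 16.5 RPKM in A. arenosa and 161, 128 and 139 RPKM in A. thaliana. Its F1 total was 0.14 from the mid-parent value (SE 0.24), and only 1.41% of it was assigned to the A. arenosa allele. Reads of near-identical ubiquitin genes may have been divided among copies, so this value is uncertain. CYP79F1, which forms aldoximes from chain-elongated methionine in glucosinolate synthesis, had 43.5, 29.2 and 44.9 RPKM in the F1, against 6.93, 11.2 and 14.0 RPKM in A. arenosa and 151, 48.1 and 69.1 RPKM in A. thaliana. BGLU9, a beta-glucosidase, had 19.6, 16.7 and 19.0 RPKM in the F1, against 6.01, 3.30 and 3.56 RPKM in A. arenosa and 23.1, 32.8 and 50.2 RPKM in A. thaliana. AT4G32340, a tetratricopeptide repeat protein, had 72.0, 65.1 and 85.2 RPKM in the F1, against 7.38, 33.5 and 18.1 RPKM in A. arenosa and 186, 95.6 and 107 RPKM in A. thaliana. The differences of these 4 genes from the mid-parent value ran from -0.22 to 0.14, and the A. arenosa allele supplied 17.9% of the CYP79F1 total, 5.04% of BGLU9 and 25.4% of AT4G32340.

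Over the class, the A. arenosa allele made up a median of 63.9% of the F1 total where A. arenosa was the higher parent and 25.8% where A. thaliana was. Of the 366 genes, 30 were intermediate under all 4 scalings.

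Parent-like genes lay with the higher parent more often than with the lower as deposited, by 1585 to 561 genes (73.9% with the higher parent). This split was 46.0% with library medians equal, 85.6% with equal sums and 57.5% with equal upper quartiles, so its direction turned under the median. A. arenosa-like genes were 1170 with A. arenosa higher and 53 with A. thaliana higher. A. thaliana-like genes were 508 with A. arenosa higher and 415 with A. thaliana higher. Under all 4 scalings, 137 genes were A. arenosa-like and 243 A. thaliana-like.

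Among A. arenosa-like genes with the larger parental differences, AT3G54400, an aspartyl protease gene, had 45.7, 127 and 135 RPKM in the F1, against 65.0, 102 and 176 RPKM in A. arenosa and 2.46, 6.05 and 30.4 RPKM in A. thaliana, with 99.0% of the F1 total from the A. arenosa allele. AT2G43590, a chitinase family gene, had 450.1, 125 and 365 RPKM in the F1, against 423, 434 and 703 RPKM in A. arenosa and 26.1, 95.5 and 14.3 RPKM in A. thaliana, with 98.3% from that allele. AT1G78820, a mannose-binding lectin gene, had 87.1, 88.9 and 233 RPKM in the F1, against 57.2, 159 and 357 RPKM in A. arenosa and 5.23, 9.58 and 35.5 RPKM in A. thaliana. In these genes the F1 and A. arenosa ranges overlapped and A. thaliana lay below both. AT4G21870, of the HSP20-like chaperones, averaged 127 ± 114 RPKM in the F1, 103 ± 40.8 in A. arenosa and 5.41 ± 2.28 in A. thaliana (SD, n = 3 each), and its F1 columns ran from 16.9 to 245 RPKM.

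With A. thaliana as the higher parent, the F1 range overlapped the lower A. arenosa range for CYP89A2, a cytochrome P450 gene, which had 29.7, 14.9 and 20.3 RPKM in the F1, against 29.7, 15.2 and 14.6 RPKM in A. arenosa and 63.3, 137 and 63.3 RPKM in A. thaliana. AT1G49470, of the DUF716 proteins, had 10.3, 6.93 and 7.57 RPKM in the F1, against 13.5, 5.33 and 5.20 RPKM in A. arenosa and 37.8, 33.9 and 18.8 RPKM in A. thaliana. MBF1C, a transcriptional coactivator of the heat response, averaged 9.28 ± 2.36 RPKM in the F1, 5.77 ± 3.8 in A. arenosa and 32.0 ± 19.2 in A. thaliana, and AT3G28540, a P-loop hydrolase gene, averaged 8.10 ± 3.26 RPKM in the F1, 5.29 ± 0.894 in A. arenosa and 39.1 ± 21.9 in A. thaliana (SD, n = 3 each). The differences of these 4 from the mid-parent value ran from -1.24 to -0.80.

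Of A. thaliana-like genes with the higher level in A. thaliana, ESP, the epithiospecifier protein that turns glucosinolate breakdown towards nitriles, had 134, 350.4 and 1254 RPKM in the F1, against 7.33, 8.13 and 9.29 RPKM in A. arenosa and 128, 488 and 2382 RPKM in A. thaliana. The F1 and A. thaliana columns overlapped and varied over a wide range, whereas A. arenosa did not exceed 9.29 RPKM, and the A. arenosa allele gave 0.162% of the F1 total. EBP, an ethylene-responsive transcription factor, had 69.1, 96.8 and 61.5 RPKM in the F1, against 13.5, 16.3 and 9.02 RPKM in A. arenosa and 179, 192 and 19.8 RPKM in A. thaliana. CNGC11, a cyclic nucleotide-gated channel gene, averaged 14.0 ± 6.95 RPKM in the F1, 4.14 ± 1.29 in A. arenosa and 35 ± 19.3 in A. thaliana, and AT1G53560, annotated in the ribosomal protein L18ae family, averaged 23.8 ± 5.28 RPKM in the F1, 6.69 ± 3.60 in A. arenosa and 43.5 ± 21.6 in A. thaliana (SD, n = 3 each).

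Other A. thaliana-like genes had the higher level in A. arenosa, and their F1 range overlapped that of A. thaliana, which does not place every F1 value at its level. BG3, a beta-1,3-glucanase of pathogen defence, had 337, 70.7 and 352 RPKM in the F1, against 2275, 1209.6 and 1526 RPKM in A. arenosa and 165, 165 and 10.9 RPKM in A. thaliana. ESM1, a modifier of the epithiospecifier reaction, had 35.3, 41.1 and 77.4 RPKM in the F1, against 114, 208 and 214 RPKM in A. arenosa and 6.39, 12.2 and 38.1 RPKM in A. thaliana. AT3G16670, of the pollen Ole e 1 allergen and extensin family, had 54.0, 65.8 and 48.7 RPKM in the F1, against 346, 281 and 244 RPKM in A. arenosa and 11.5, 17.2 and 67.3 RPKM in A. thaliana. For all 3, every F1 value was below every A. arenosa value, and for BG3 and ESM1 2 of the 3 F1 values were above every A. thaliana value. BBX30, a B-box zinc finger gene, averaged 4.85 ± 4.40 RPKM in the F1, 55.6 ± 63.8 in A. arenosa and 3.28 ± 2.87 in A. thaliana (SD, n = 3 each). The A. arenosa allele made up most of these F1 totals all the same, 91.8% for BG3, 85.4% for ESM1 and 74.1% for AT3G16670.

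Among the lists of pathway genes, those of jasmonate had the highest median with all columns in use. Jasmonate is the lipid-derived hormone of wounding, made from linolenic acid by lipoxygenases (LOX), allene oxide synthase and cyclase (AOS, AOC) and OPR3, and JAZ proteins repress its responses and are themselves induced by it. The 19 members compared, of 26 listed, had a median difference of 0.92 from the mid-parent value, against 0.15 over all genes. Above 0 were 18 of 19, beside 6838 of all 9989 genes. By size, 9 were at least 2-fold above and 0 below, beside 3.98% and 1.25% of all genes, and 4 were transgressive high, beside 6.3%. No member passed the test over all genes (lowest adjusted p = 0.0795). At an unadjusted p under 0.05, 8 were above the mid-parent value and 0 below, beside 1402 and 243 of all 9989 genes.

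JAZ5, a repressor, had 41.0, 51.4 and 95.7 RPKM in the F1, against 4.66, 15.8 and 22.1 RPKM in A. arenosa and 10.5, 5.80 and 5.17 RPKM in A. thaliana, a difference of 2.52 (SE 0.45). JAZ1 had 63.5, 65.3 and 102 RPKM in the F1, against 8.64, 25.0 and 32.8 RPKM in A. arenosa and 30.4, 17 and 14.7 RPKM in A. thaliana, a difference of 1.88 (SE 0.40). Neither gene's F1 range overlapped a parent, and the same held for JAZ6, with 84.2, 117 and 156 RPKM in the F1, against 39.9, 81.2 and 77.3 RPKM in A. arenosa and 40.6, 40.6 and 48.3 RPKM in A. thaliana. Of the enzymes, LOX3 had 50.5, 56.8 and 126 RPKM in the F1, against 1.90, 24.7 and 46.7 RPKM in A. arenosa and 10.8, 9.82 and 9.76 RPKM in A. thaliana, a difference of 2.45 (SE 0.74), and OPR3 a difference of 1.77 (SE 0.62). LOX4, whose sequence is close to LOX3, had 121, 53.7 and 119 RPKM in the F1, against 6.97, 42.1 and 60.9 RPKM in A. arenosa and 10.9, 10.4 and 9.55 RPKM in A. thaliana, so that an F1 value overlapped A. arenosa. LOX2, the chloroplast lipoxygenase, was near the mid-parent value at -0.13 (SE 0.66). The list's median was 0.73 with equal library medians and 1.09 with equal sums. Without A. arenosa column 1, in which the list had its lowest A. arenosa level, it was 0.497, under the leaf senescence list at 0.619 and the cold and abscisic acid list at 0.503. Without F1 column 1 and A. thaliana column 1 it was 1.14, under the cold and abscisic acid list at 1.65.

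**Figure D4:**
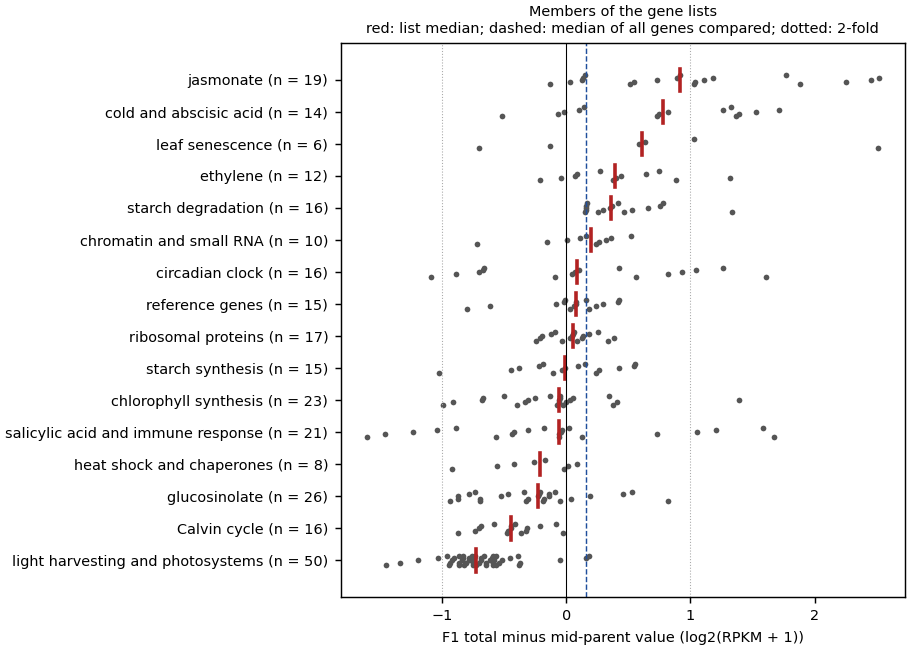
F1 total minus mid-parent value (x axis, log2(RPKM + 1)) of each member of the gene lists with 6 or more members compared, with the list median in red and the median of all genes (0.15) dashed. The jasmonate list has a median of 0.92 and the light harvesting list -0.73.

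Genes of the cold and abscisic acid response, which encode protective proteins and zinc finger regulators, had a median of 0.78 over 14 members, with 6 at least 2-fold above the mid-parent value and 0 below, beside 3.98% and 1.25% of all genes. COR15B, a chloroplast cold-protection protein, had 54.5, 169.7 and 149 RPKM in the F1, against 13.4, 38.2 and 24.1 RPKM in A. arenosa and 66.1, 26.1 and 47.1 RPKM in A. thaliana, a difference of 1.71 (SE 0.46, limma adjusted p = 0.138). RD29A had 33.0, 254 and 289 RPKM in the F1, against 12.8, 134 and 114 RPKM in A. arenosa and 49.7, 30.2 and 24.7 RPKM in A. thaliana, a difference of 1.53 (SE 0.86). F1 column 1 lay within the parental range for both genes, while columns 2 and 3 lay above it. RAB18, a dehydrin, had a difference of -0.52 (SE 0.37) and P5CS1, of proline synthesis, -0.07 (SE 0.70). The list median was 1.65 without F1 column 1 and A. thaliana column 1, and 0.50 without A. arenosa column 1. At an unadjusted p under 0.05, 3 of the 14 members were above the mid-parent value, beside 1402 of all 9989 genes, and none passed the adjusted test.

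The glucosinolate list, the sulfur-containing defence compounds of the cabbage family, had a median of -0.22. Below 0 were 21 of its 26 members, beside 3151 of all 9989 genes. Past 2-fold were 0 members in either direction, beside 3.98% above and 1.25% below of all genes. Of the 26, 4 were transgressive low, beside 0.45% of all genes. These 4 encode the last steps of the core structure, the glucosyltransferases UGT74B1 and UGT74C1 and the sulfotransferases SOT17 and SOT18. UGT74C1 had 25.5, 26.5 and 26.8 RPKM in the F1, against 49.9, 59.9 and 59.2 RPKM in A. arenosa and 36.8, 32.4 and 60.8 RPKM in A. thaliana, a difference of -0.87 (SE 0.22, limma adjusted p = 0.125). SOT18 had 32.3, 30.3 and 25.8 RPKM in the F1, against 46.5, 43.1 and 43.5 RPKM in A. arenosa and 59.8, 46.5 and 58.6 RPKM in A. thaliana, a difference of -0.73 (SE 0.18, adjusted p = 0.12). SOT17, whose sequence is close to SOT18, had 19.2, 12.7 and 12.3 RPKM in the F1, against 22.2, 23.5 and 22.2 RPKM in A. arenosa and 38.3, 25.9 and 23.2 RPKM in A. thaliana, and UGT74B1 had 43.9, 26.4 and 35.9 RPKM in the F1, against 63.4, 53.0 and 63.0 RPKM in A. arenosa and 57.3, 44.5 and 61.5 RPKM in A. thaliana. None of the 4 passed the test. With equal library medians, sums and upper quartiles, 5, 1 and 3 members of the list were transgressive low. Beside these were 267, 23 and 174 of all 9989 genes. MYB51, a regulator of indole glucosinolates, was the highest member at 0.82 (SE 0.50).

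Genes of photosynthesis had the lowest list medians with all columns in use. The 50 genes of light harvesting and the photosystems had a median of -0.73, with 48 below 0 (beside 3151 of all 9989 genes) and 4 at least 2-fold below (beside 1.25%), and the 16 Calvin cycle genes a median of -0.45, all below 0. LHCB2.1, an antenna protein of photosystem II, had 247, 1492 and 3097 RPKM in the F1, against 4648, 4437 and 4588 RPKM in A. arenosa and 197, 2006 and 3950.2 RPKM in A. thaliana, and LHCB1.5 had 1511, 5694 and 11094 RPKM in the F1, against 17236, 16689 and 14509 RPKM in A. arenosa and 2909, 9038 and 13022 RPKM in A. thaliana. A. arenosa was steady in these genes, while F1 column 1 and A. thaliana column 1 were both far below the other columns of their groups. The differences were -1.45 (SE 1.08) and -1.34 (SE 0.83). An unadjusted p under 0.05 was found in 0 of 50 (lowest limma adjusted p = 0.442), beside 1402 genes above and 243 below among all 9989. Without those 2 columns the list median was -0.44, above the -0.57 of the 3 flavonoid genes. Some LHCB genes, such as the LHCB1 copies, are near-identical, and their reads may have been divided among them.

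**Figure D5:**
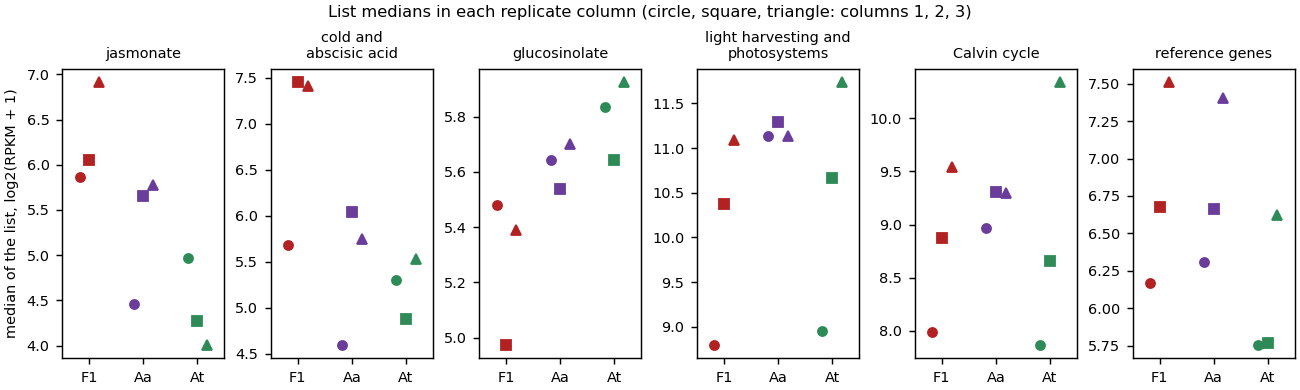
Median log2(RPKM + 1) of 6 gene lists (y axes, each with its own scale) in every replicate column of the F1, A. arenosa (Aa) and A. thaliana (At). The light harvesting list is at 8.80 in F1 column 1 and 8.96 in A. thaliana column 1, against 10.37 to 11.74 in the other columns.

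Clock genes also varied between the columns of a group. The circadian clock of plants runs on morning genes such as CCA1 and evening genes such as TOC1 and LUX, which repress each other. Over 16 members the median was 0.09, with 3 at least 2-fold above and 1 below, beside 3.98% and 1.25% of all genes, and this median turned to -0.14 with equal library medians. LUX had 26.5, 33.5 and 22.3 RPKM in the F1, against 1.19, 15.2 and 12.0 RPKM in A. arenosa and 23.7, 5.12 and 7.01 RPKM in A. thaliana, a difference of 1.61 (SE 0.64), and TOC1 a difference of 1.26 (SE 0.58). CCA1 had 0.349, 3.18 and 6.55 RPKM in the F1, against 9.91, 4.73 and 8.56 RPKM in A. arenosa and 0.258, 7.23 and 24.5 RPKM in A. thaliana, a difference of -1.09 (SE 0.85), and LNK1, another morning gene, one of -0.89 (SE 0.40). The spread of CCA1 between columns was larger than its difference from the mid-parent value. The time of day of each collection is absent from the labels, and its part in these values was not tested.

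The salicylic acid and immune list was divided. Its median was -0.06 over 21 members, with 4 at least 2-fold above the mid-parent value and 4 below, beside 3.98% and 1.25% of all genes. WRKY33, a transcription factor of fungal defence, had 75.4, 48.1 and 133 RPKM in the F1, against 15.1, 15.4 and 24.6 RPKM in A. arenosa and 35, 32.7 and 31.3 RPKM in A. thaliana, a difference of 1.59 (SE 0.31, limma adjusted p = 0.0934). WRKY40 had 91.5, 90.0 and 190.3 RPKM in the F1, against 25.9, 38.1 and 69.5 RPKM in A. arenosa and 54.0, 24.2 and 21.8 RPKM in A. thaliana, a difference of 1.67 (SE 0.41). Both were transgressive high. At the other end, WRKY70, which acts in salicylic acid signalling, had 95.6, 40.3 and 43.7 RPKM in the F1, against 252, 79.1 and 116 RPKM in A. arenosa and 272, 254 and 77.1 RPKM in A. thaliana, a difference of -1.46 (SE 0.52), and NIMIN1, an inhibitor of NPR1, had 11.9, 2.68 and 2.52 RPKM in the F1, against 38.5, 8.85 and 12.2 RPKM in A. arenosa and 34.4, 24.1 and 3.92 RPKM in A. thaliana, a difference of -1.61 (SE 0.70). In both, at least 1 F1 value lay within the parental ranges, and no member of the list passed the test.

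The starch, ethylene, senescence and chlorophyll lists had medians between those of jasmonate and light harvesting. All 16 starch degradation genes were above 0, beside 6838 of all 9989 genes. Their median was 0.36, or 0.14 with equal library medians, and BAM9, a beta-amylase-like protein, was highest at 1.34 (SE 0.55). The 15 starch synthesis genes had a median of -0.01, with the granule-bound starch synthase GBSS1 at -1.03 (SE 0.69). The 12 ethylene genes had a median of 0.39, and the repressor ERF4 was highest at 1.32 (SE 0.34), while CTR1, the kinase that holds the pathway off, was transgressive high with 20.6, 15.4 and 17 RPKM in the F1, against 9.91, 10.8 and 14.2 RPKM in A. arenosa and 9.44, 10.2 and 6.79 RPKM in A. thaliana. The 6 leaf senescence genes had a median of 0.61. Of these, DIN10, induced by darkness, had 38.4, 239 and 229.7 RPKM in the F1, against 4.41, 43.6 and 60.3 RPKM in A. arenosa and 12.0, 14.9 and 44.0 RPKM in A. thaliana, a difference of 2.51 (SE 0.86), and SAG13 one of -0.70 (SE 0.82). Chlorophyll synthesis genes (23) had a median of -0.06, with HEMA2, a glutamyl-tRNA reductase, transgressive high at 1.39 (SE 0.37) and CAO, the chlorophyllide a oxygenase, lowest at -1.0 (SE 0.64).

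Of 22 flowering genes, 4 were compared. SVP, a repressor of flowering, was transgressive low with 20.9, 18.6 and 24.4 RPKM in the F1, against 35.5, 26.4 and 25.7 RPKM in A. arenosa and 28.2, 28.1 and 36.4 RPKM in A. thaliana. It did not keep this class with equal library sums, where 0 of the 4 were transgressive low. FLM, of the FLC-related repressors, had 9.39, 16.0 and 15.1 RPKM in the F1, against 4.40, 4.38 and 6.20 RPKM in A. arenosa and 8.92, 9.73 and 7.28 RPKM in A. thaliana, a difference of 0.87 (SE 0.20, limma adjusted p = 0.107). The 10 chromatin and small RNA genes had a median of 0.20, the 17 ribosomal protein genes 0.05, the 15 reference genes 0.08, the 8 heat shock genes -0.22 and the 3 flavonoid genes -0.20. With equal library medians, those of the reference, ribosomal and chromatin genes became -0.15, -0.15 and -0.0071, on the other side of 0.

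The columns differed in ways the groups do not explain. Ribosomal RNA transcripts made up 59.6% of the summed RPKM of A. arenosa column 1, against 0.233% to 2.56% in the other parental columns, and were left out. The 9 flower, 9 root and 5 seed markers were not in the F1 table. In the parents their summed levels were 9.15 to 19.8 in A. arenosa and 1.24 to 2.18 in A. thaliana for flower. For root they were 1.03 to 2.2 in A. arenosa and 0.39 to 1.11 in A. thaliana, and for seed 0 to 0.398 in A. arenosa and 0 to 0.0249 in A. thaliana. The phloem marker SUC2 ran from 105 to 185 RPKM in the F1, 191 to 257 in A. arenosa and 119 to 175 in A. thaliana, and 2 of 4 guard cell markers summed to 10.4 to 21.4 RPKM in the F1, 13.4 to 15.8 in A. arenosa and 13.3 to 13.9 in A. thaliana. Their part in the results was not tested.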

How the data were processed

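Messenger RNA of rosette leaves was sequenced by Illumina (reads of 60 to 83 bases, per the labels' protocols). The authors deposited 1 table per group, holding transcript RPKM for a parent and, for the F1, RPKM by allele, in 3 replicate columns, per the file headers. Reads were placed on TAIR 9, per the submitters' processing notes. The sources used here name no aligner, no strand setting and no rule for dividing reads between alleles. Depth is unknown as well, so no counting error could be attached to a value.

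Each gene was represented by 1 transcript, and 7 transcripts of ribosomal RNA repeats were left out. Values were compared as log2(RPKM + 1), which understates differences of low genes. For the mid-parent value, both parents (each at its mean over columns on the log2 scale) were averaged as RPKM and returned to log2. The F1 was tested against it in 1 limma model (limma 3.58.1, R 4.3.3, variances following the level) of 3 groups, the error of the mid-parent value by the delta method, with Benjamini-Hochberg adjustment over all 9989 genes. The test was checked on simulated data, where most 2-fold changes were missed and a few unchanged genes were called. Figures and other steps used Python 3.11.15. Names and positions come from TAIR10.1.

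Genes named are the 8 called genes with the largest differences, the 6 farthest outside both parents in each direction and the 4 with the largest parental difference in each direction of the intermediate and parent-like classes, all with a highest group mean of 20 RPKM or more and a lowest of 1 RPKM or more, and from each list the extreme 2 in both directions. Any other gene was named after its values were seen. The comparison and the gene lists were chosen with earlier results of these data known. The F8 and A. suecica tables were not used, apart from an alternative limited to transcripts listed in all 5 tables. Other alternatives were the pseudocount, the filter, the scaling, the mid-parent value on the log2 scale, limma without trend, a replicate block and leaving out columns.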

Additional observations from a re-analysis of the deposited data

How the results depend on the processing

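Of all genes compared, 9 were called above the mid-parent value and 0 below. The first number was 4 and 17 with pseudocounts of 0.1 and 5 RPKM, 1 with the larger parent at least 20 RPKM, 26 with the mid-parent value on the log2 scale, 2, 3 and 2 with equal library medians, sums and upper quartiles, 3 in limma without trend and 2 with transcripts listed in all 5 tables. It was 12 with the replicate block, of which 5 were among the 9. The 4 others (AT2G30990, AT4G36010, CAD1, NET4B) did not pass there. Deviations of same-numbered columns from their group means correlated across genes at 0.28 to 0.31 between the F1 and A. arenosa, -0.26 to 0.53 between the F1 and A. thaliana and -0.12 to 0.14 between the parents. Every pair of the F1 and A. arenosa was thus above 0.1, but not those with A. thaliana, and the block was not made part of the 3-group model. Against A. arenosa it gave 91 genes above and 32 below. Leaving out 1 column gave 0 to 20 above and 0 to 2 below, and leaving out F1 and A. thaliana column 1 together (added after seeing the data) 8 above and 5 below.

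By size, 2-fold genes numbered 251 above and 58 below with a pseudocount of 5 RPKM, 224 above and 234 below with equal medians and 262 above with equal upper quartiles. Without 1 column they numbered 235 to 578 above and 96 to 222 below. At 20 RPKM they numbered 184 above, but only 4341 genes were compared there, in place of 9989. The median difference at that limit was 0.03, in place of 0.15.

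Of the 4341 genes that passed that limit of 20 RPKM, 128 were transgressive high, 28 transgressive low, 207 intermediate, 457 A. arenosa-like and 504 A. thaliana-like. Transgressive high and low genes numbered 217 and 267 with equal medians, 310 and 174 with equal upper quartiles, 1721 and 237 with the F1 mean in place of every F1 value, and 37 and 1 with a margin of 1.5-fold. With equal sums there were 23 transgressive low and 114 intermediate genes, and the F1 mean gave 1141 intermediate genes. A. arenosa-like genes numbered 721, 461 and 681 with equal medians, sums and upper quartiles. Without F1 and A. thaliana column 1 there were 1265 high, 263 low and 696 intermediate genes. Without 1 column the ranges were 670 to 1202 high, 49 to 150 low, 427 to 737 intermediate, 1074 to 2939 A. arenosa-like and 882 to 1569 A. thaliana-like. Fewer columns narrow the ranges by construction.

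Genes above A. thaliana numbered 236 with a pseudocount of 5 RPKM, 104 at 20 RPKM, 35, 238 and 73 with equal medians, sums and upper quartiles, 691 with the replicate block and 52 without F1 and A. thaliana column 1. Genes below it numbered 9 at 20 RPKM, 10 and 13 with equal sums and upper quartiles, 13 without trend and 4 without both columns. Genes above A. arenosa numbered 34 at 20 RPKM, 146 with equal sums and 54 without both columns, and genes below it 13 at 20 RPKM and 37 and 5 with equal medians and sums. Without 1 column these counts ran from 0 to 1132, 0 to 75, 17 to 206 and 1 to 98.

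Of 109 named genes, 33 had the other sign under at least 1 alternative. COI1, the jasmonate receptor, was at -0.21 and -0.15 with equal medians and upper quartiles, against 0.03 as deposited. Causes were not tested. Depth is unknown, so precision rests on the spread between 3 columns.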
